A study of Saccharomyces cerevisiae with 14 samples.

Results

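Strain 73 is a diploid budding yeast isolate obtained with the TAQing system. Its array showed a gain of DNA along nearly all of chromosome XII, though none was detectable at the ribosomal DNA. The strain is represented by 1 of the 14 arrays of the series. It was chosen by its label, with earlier results of these data known. Its values were set beside the array of the control strain WT14 and the arrays of the 12 other TAQed strains.

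WT14 is a MATa/a diploid made by cell fusion of YPH499, an S288C-derived haploid, and S799, an SK1-derived haploid, so its 2 homologues of each chromosome differ in sequence at many sites. In the TAQing system the restriction enzyme TaqI, from a heat-loving bacterium, is expressed from a vector under Cu2+ induction and activated by heat, here 30 min at 42 °C, to cut the genome at many places at once. The labels repeat this treatment for WT14, which the study describes as the control without TaqI activation. The TAQed strains were picked as isolates with altered colonies and cell morphology, and each is 1 clone, so a change that arose during growth and one that followed TaqI cutting cannot be told apart in a single strain.

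Genomic DNA of each strain was labelled with Cy5 and hybridised together with Cy3-labelled DNA of WT14 to a tiling array (array comparative genomic hybridisation). The log2 ratio of both signals follows the copy number of a probe's sequence relative to WT14, and each array was centred on its own median. There was 1 array per strain and no dye swap, so no value of strain 73 has a replicate of its own. A total of 59133 nuclear probes were used, 5265 of them on chromosome XII. The array of strain 73 was bright enough for single probes to be read, with 99.9% of spots well above background in both channels and a noise SD of 0.11 between neighbouring probes, against 0.11 to 0.19 on the other arrays. The highest of these belongs to strain 81, whose array was dim, with 80.4% of spots well above background. Strain 73 shared its slide with WT14 and strains 1, 76, 81 and 83. The other slide held strains 119, 117, 113, 107, 106, 101, 97 and 84.

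Chromosome XII is among the larger chromosomes of budding yeast and carries its single ribosomal DNA locus, a long tandem repeat that encodes the ribosomal RNAs and divides the right arm into parts before and after it. A cell that gains a chromosome, through an error in its segregation or otherwise, is aneuploid, and in yeast the transcripts of most genes on an extra chromosome rise roughly with their copy number. RefSeq's gene table of the reference strain (assembly R64) lists 573 genes on chromosome XII, which is 8.85% of its 6477 genes. Among them are HSP104, which encodes a chaperone that frees proteins from heat-induced aggregates, RAD5 for DNA damage tolerance, SIC1, an inhibitor of cyclin-dependent kinase, CDC42, the small GTPase of cell polarity, FKS1 for cell wall glucan synthesis, SIR3 for silent chromatin, and the metabolic genes PDC1, GAL2, ERG3, ACO1 and ILV5. HSP104 lies on the left arm and the others named here lie on the right arm. No gene is given a value of its own below, because the table and the array use different genome builds (the array, sacCer2), and RNA was not measured.

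The first comparison asked whether chromosome XII of strain 73 stood apart from the same chromosome on the other arrays. Its median log2 ratio was 0.68, with quartiles over its probes of 0.56 and 0.80. On the 13 other arrays the median of chromosome XII ran from -0.01 (strain 97) over 0.05 to 0.34 (strain 106), and WT14 gave -0.01. Strain 73 was thus the highest of the 14, and no other array came near it. The next highest, strain 106, was also raised on chromosome IV, at 0.56, where strain 73 gave 0.08. The difference between strain 73 and the mean of the others was 0.60, which an exact two-sided permutation test over arrays placed at p = 0.0714, the smallest that 1 array against 13 allows. Strain and chromosome were chosen with earlier results of these data known, so this p is no separate support for the gain. Among the 5 other arrays of its slide, the medians ran from -0.01 to 0.05, so the gain of strain 73 was as large within the slide, at 0.66 above their mean.

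The other 15 chromosomes of strain 73 had medians between -0.12 (chromosome III) and 0.08 (chromosome IV). Chromosomes I, III and IX were the lowest. The corresponding range on the WT14 array was -0.01 to 0.03. All 15 lay within the range of the 13 other arrays for the same chromosome.

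**Figure D1:**
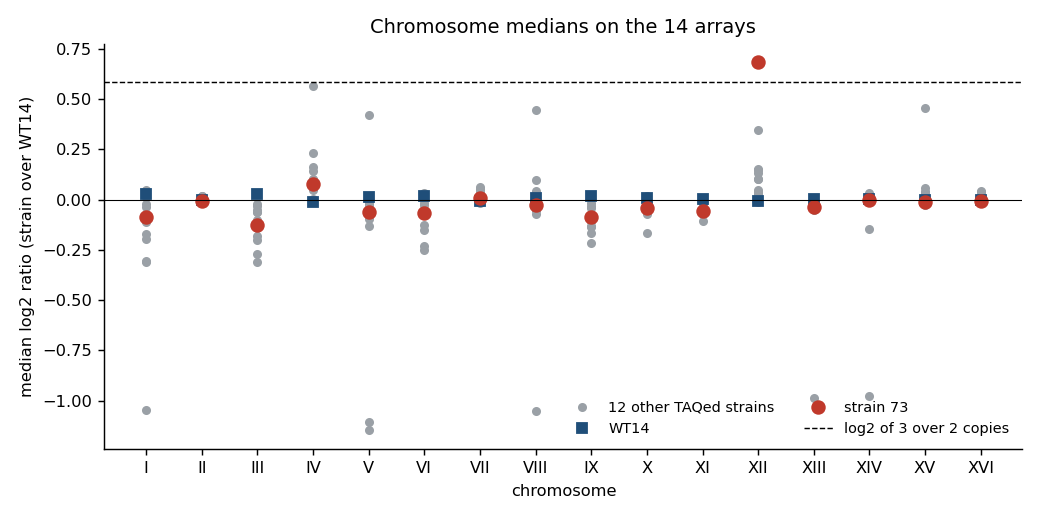
Median log2 ratio (vertical axis, strain over WT14) of each of the 16 nuclear chromosomes (horizontal axis) for strain 73 (red), WT14 (blue squares) and the 12 other TAQed strains (grey). Chromosome XII of strain 73 lies at 0.68, above the dashed line at 0.58 (log2 of 3 over 2 copies), while its other chromosomes lie between -0.12 and 0.08.

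The signals behind the ratio showed the gain in the strain's own channel. In strain 73, the median Cy5 signal of chromosome XII probes was 1.40 times that of the other nuclear probes, whereas the same quotient ran from 0.88 (strain 76) to 1.12 (strain 106) on the other arrays. In Cy3, the WT14 reference, the quotient was 0.86 for strain 73 and 0.89 to 0.92 on the others. The reference quotient of strain 73 was thus slightly below the range of the others, by far less than the Cy5 quotient was above it.

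The gain was seen in nearly every probe and not in a part of the chromosome. Single probes above 0.3 made up 97.4% of those on chromosome XII in strain 73, 58.0% in strain 106 and 2.89% in WT14. On the rest of the nuclear genome of strain 73 the share was 2.29%, against 2.71% in WT14. In 2 kb windows with at least 3 probes, 507 of the 511 windows on chromosome XII had a mean above 0.3. The background over the genome was 9.58% of 5859 windows in strain 73, which the chromosome itself largely made up, and 1.02% in WT14. Outside chromosome XII, 54 of 5348 windows of strain 73 passed 0.3, or 1.01%, which is near the 0.90% of WT14. Windows below -0.3 were 0.0512% of all in strain 73 and 0.0512% in WT14, and in strain 73 none of them lay on chromosome XII.

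A fit across all windows was run on the same ratios, so it is not separate evidence for the gain. Windows of 1 chromosome on 1 array are neighbours and not replicates. The limma model (lmFit and eBayes, Benjamini-Hochberg adjustment) took the lone array of strain 73 to vary like the 13 others. It called 449 windows higher in strain 73 at an adjusted p of 0.05, which is 7.66% of 5859, and 0 windows lower (0%), with 530 windows at an unadjusted p under 0.05. Of the 449, 445 were on chromosome XII. The median difference over the 511 windows of chromosome XII was 0.60, with quartiles of 0.57 and 0.63, a median SE of 0.11 and a median adjusted p of 0.00431 from limma. Of the 66 windows of chromosome XII that were not called, 32 were all the windows from 14001 to 78000, where strain 76 had lost DNA. They differed by 0.54 to 0.76, with an SE of 0.25 to 0.33 that includes strain 76. Without strain 76 the fit called 465 windows on chromosome XII, and without both strain 76 and strain 106 it called 489.

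Ratios of strain 73 were not level along chromosome XII, and most of the unevenness was shared with other arrays. In 20 kb windows away from the ends and the ribosomal DNA, its level ran from 0.53 in the window starting at 40001 to 0.88 in the window starting at 500001. The middle of chromosome XII lay 0.16 above its ends in strain 73, comparing probes over 150 kb from an end with those 20 to 50 kb from one. The same difference ran from -0.01 in WT14 and strain 97 to 0.63 in strain 76, where the left part is lost, and reached 0.39 in strains 106 and 119. On the other chromosomes long enough for this measure, 13 in all, the median difference was 0.07 in strain 73 and ran from -0.04 (strain 113) to 0.28 (strain 106) elsewhere. A rise from ends to middles was therefore present outside the gained chromosome and on most TAQed arrays, and its cause was not tested.

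Once each probe's median over the 13 other arrays was subtracted, chromosome XII of strain 73 became nearly flat. The relative gain lay between 0.57 and 0.65 in the 48 windows, with an SD of 0.02 where the levels had an SD of 0.09. In all 48, strain 73 was above every other array. In windows of 2 kb, 502 of the 511 on chromosome XII (98.2%) exceeded all 13 others and 0 fell below them. Over the genome, 9.3% of 2 kb windows exceeded all 13 others and 1.66% fell below them. Outside chromosome XII these shares were 0.80% and 1.81%. Over all probes of chromosome XII the relative gain was 0.61. If WT14 holds 2 copies, this is 3.05 copies, close to the 0.58 that 3 over 2 copies gives. The level of 0.68 without the subtraction would be 3.21 copies.

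**Figure D2:**
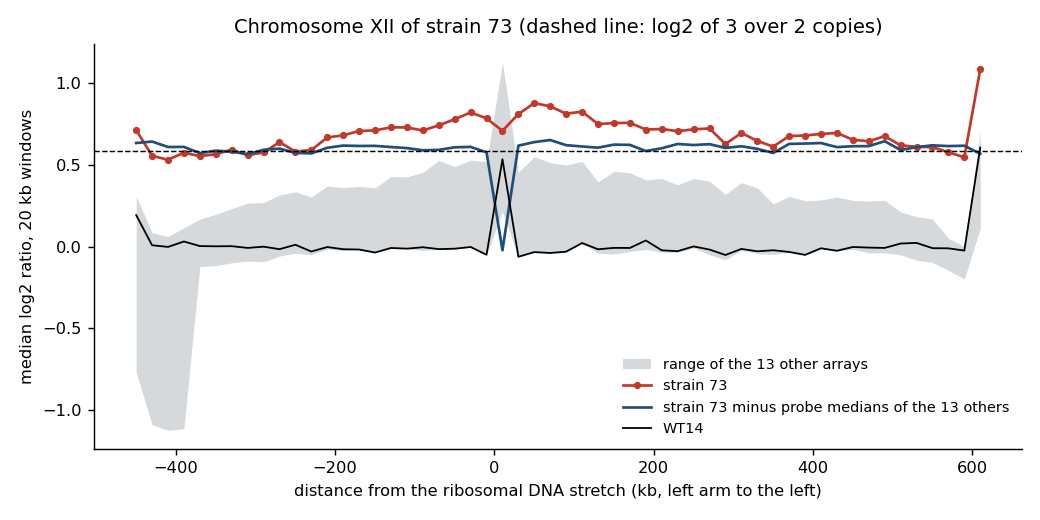
Median log2 ratio in 20 kb windows (vertical axis) against the distance in kb from the ribosomal DNA stretch (horizontal axis) for strain 73 (red), WT14 (black) and the range of the 13 other arrays (grey), with strain 73 after subtraction of the probe medians of the 13 others (blue). The blue line stays between 0.57 and 0.65 away from the ends and drops to -0.02 at the ribosomal DNA, and the low grey range at the left is strain 76.

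Both arms took part. The left arm (from 20 kb to 150 kb, a boundary set near the centromere) had a median of 0.56 in strain 73, and on the other arrays -0.26 (strain 76) to 0.15 (strain 106). The right arm before the ribosomal DNA had a median of 0.70, with -0.01 to 0.40 elsewhere. The right arm after the ribosomal DNA also had a median of 0.70, with -0.02 to 0.35 elsewhere. Relative to the other arrays the parts gave 0.60, 0.60 and 0.62, or 3.03, 3.04 and 3.07 copies. The arms therefore differed by 0.14 in level but by about 0.02 or less once the trend shared with the other arrays was taken out. This remainder was not tested.

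Segmentation by least squares (at least 10 probes per segment, called past 0.3) divided chromosome XII of strain 73 into 13 segments, 11 of them gained. The steps between the long ones were small. The level was 0.57 from 11354 to 237110 (1135 probes), 0.71 from 237262 to 376948, 0.79 from 377203 to 451432, 0.85 from 489761 to 576381, 0.71 from 576565 to 789620, 0.68 from 819348 to 963332 and 0.59 from 963733 to 1063672. These levels rise towards the ribosomal DNA and fall away from it on the far side, as the levels of several other arrays did. A shorter gained segment from 789798 to 815729 (132 probes) was at 0.61, below the long segments on either side, at 0.71 and 0.68. The outermost segments were higher, at 1.28 on the left and 1.39 on the right. The segments that were not called were both short, and they are described next with the ribosomal DNA.

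At the ribosomal DNA, strain 73 did not stand apart from the other arrays. The stretch from 451863 to 467825, which the general map of this chromosome places at the ribosomal DNA repeats, held only 21 probes and had a median of 1.19 in strain 73. WT14 against itself gave 0.96 there, and the other arrays ran from 0.56 (strain 101) over 1.28 to 1.92 (strain 119). Strain 73 was 8th of 14 from the top, so it lay in the middle of the arrays. Its value there was 0.32 with loess and 0.31 with the WT14 ratio subtracted. In the limma fit, the 3 windows starting at 458001, 460001 and 464001 differed between strain 73 and the mean of the others by 0.03 (SE 0.39), -0.02 (SE 0.39) and 0.01 (SE 0.41), with an adjusted p of 1.00 for each. The spread between strains at the repeats was thus about as large as the gain of the rest of the chromosome, and a rise of 0.6 was not detectable there. A ratio at a tandem repeat follows the number of repeats summed over the homologues, and it cannot be told apart here from the number of chromosomes. Beyond the repeats, the segment from 469004 to 489730 (25 probes) was at -0.20 in strain 73, where WT14 gave -0.44 and the others -0.54 (strain 1) to -0.14 (strain 113). This stretch was below 0 on all 14 arrays, WT14 included.

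The other segment that was not called was shorter. The segment from 815943 to 819134 (16 probes) was at only 0.29 in strain 73, in the midst of the gain, and 6 of its probes were below 0. The lowest, at 818004 to 818063, was -1.30 in strain 73, -2.61 in strain 106, 0.71 in strain 83 and 0.04 in WT14. On the other 10 arrays it lay between -0.17 and 0.06. At 815943 to 816002 the values were -0.72 in strain 73, -1.19 in strain 106, 0.70 in strain 83 and 0.00 in WT14. Among the remaining 10 TAQed strains, values there ran from -0.16 (strain 84) to 0.30 (strain 81). Strain 73 and strain 106 were thus the lowest at both probes and strain 83 the highest.

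The comparison of strains 73, 106 and 83 was extended to all probes of chromosome XII. For every probe, the deviation from its surroundings was computed as the ratio, minus the probe's median over 10 arrays (all but strains 73, 76, 83 and 106), minus a running median over 51 probes. In arithmetic, 1 extra copy takes a probe that matches both homologues to 0.58. A probe that matches only 1 homologue goes to 1.00 if that homologue was doubled and stays at 0 if the other one was. These values hold only where both homologues are still present. The paper reports break-induced repairs between homologues in the TAQed strains, some of them in ribosomal DNA regions. A stretch where 1 homologue replaced the other would give other values, and this was not tested. Which parent a probe matches was not analysed here.

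Right of the ribosomal DNA (from 500 to 1050 kb, 2781 probes), the deviations of strain 73 had a 1st percentile of -0.53, a 99th percentile of 0.47, and the middle 80% of probes spanned 0.27. On 9 of the arrays that served as reference this span was 0.13 to 0.18, and on the dim array of strain 81 it was 0.47. It was 0.28 in both strain 83 and strain 106. Left of the ribosomal DNA (from 20 to 440 kb, 2178 probes), the deviations of strain 73 were narrower, with a 1st percentile of -0.30, a 99th of 0.20 and a span of 0.20. The span there was 0.17 in strain 83, 0.19 in strain 106 and 0.13 to 0.17 on the 9 arrays. The reference arrays took part in the reference, which narrows their own deviations. In the 20 kb windows, the span of strain 73 had a median of 0.20 on the left and 0.28 on the right, where single windows reached 0.68.

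**Figure D3:**
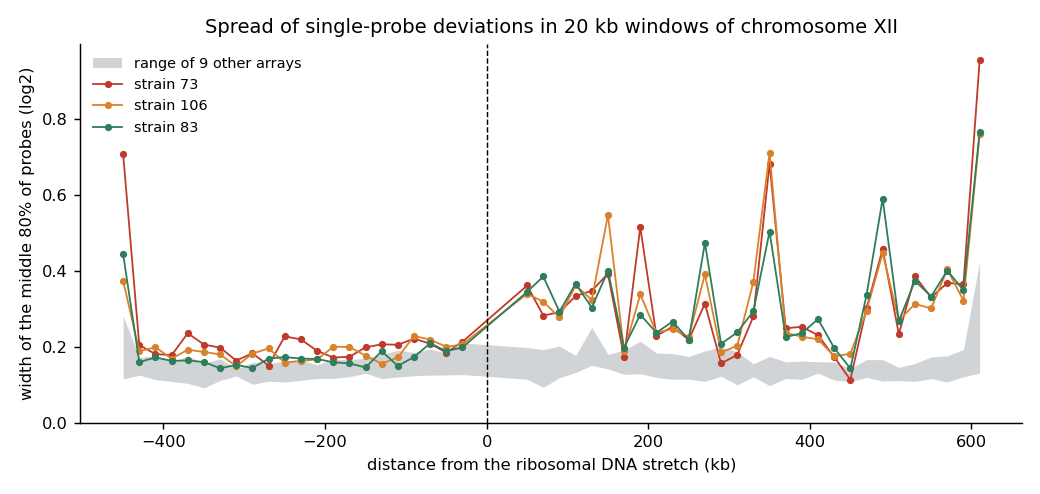
Width of the middle 80% of the single-probe deviations (vertical axis, log2) in 20 kb windows of chromosome XII against the distance in kb from the ribosomal DNA stretch (horizontal axis, dashed line at 0) for strains 73, 106 and 83 and the range of 9 other arrays (grey). Left of the line the strains stay near 0.2, and right of it all 3 rise in many of the same windows, up to 0.68 in strain 73, with higher values in the outermost windows.

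The same probes deviated in strains 73 and 106. To the right, the deviations of both strains had a Pearson's r of 0.84 and a Spearman's rho of 0.60 over probes. With strain 83 the correlation was negative, at -0.64 and -0.41. With the 10 other arrays, Pearson's r lay between -0.05 and 0.09. In 20 kb windows to the right, rho was positive with strain 106 in 27 of 27 and negative with strain 83 in 25. The others were the window starting at 740001, with 0.23 for strain 106 and 0.15 for strain 83, and that starting at 900001, with 0.05 and 0.19. To the left, r was -0.02 with strain 106 and 0.08 with strain 83. These are descriptions over probes that share a probe sequence, the WT14 reference and neighbouring positions, so no p is attached. They also rest on how signals were background-corrected. Under normexp with an offset of 50, Spearman's rho with strain 106 was 0.78 to the right and 0.55 to the left, and with strain 83 it was -0.11 and 0.21, so the side of the ribosomal DNA made less difference there.

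**Figure D4:**
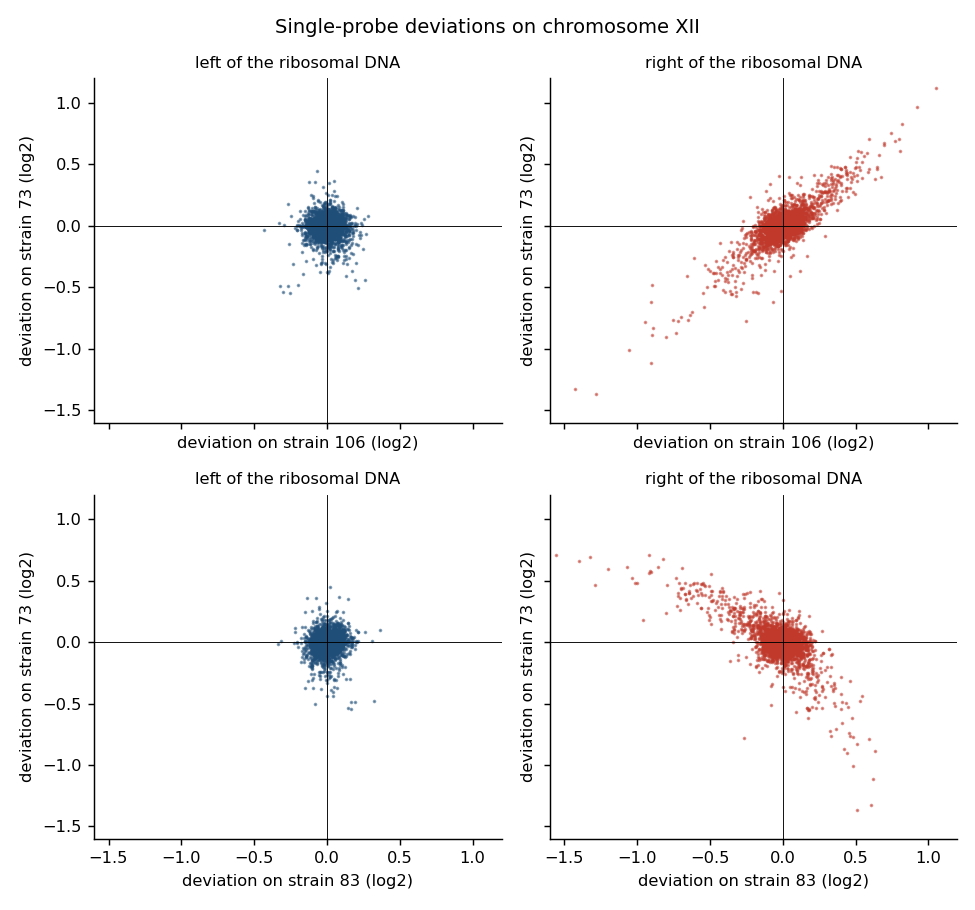
Deviation of each probe in strain 73 (vertical axis, log2) against its deviation in strain 106 (top row) or strain 83 (bottom row), left of the ribosomal DNA (blue) and right of it (red). The clouds on the left are round, while on the right the probes run along a rising diagonal for strain 106 (r of 0.84) and a falling curve for strain 83 (r of -0.64); 1 probe lies off the axes for strain 106 and 5 for strain 83.

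Probes picked on another array describe the tails of the same deviations in strain 73, so they are not a separate test. They were not recomputed under normexp. The 143 probes to the right that lay over 0.3 below their surroundings in strain 83 had a median level of 1.06 in strain 73 (quartiles 0.91 and 1.19), against 0.69 for the other 2643 probes there, and 134 of the 143 were above that level. In WT14 they had a median of -0.02. The 44 probes that lay over 0.3 above their surroundings in strain 83 had a median of 0.08 in strain 73 (quartiles -0.14 and 0.42), against 0.70 for the rest. Both groups therefore fell on opposite sides of the chromosome's level in strain 73.

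With strain 106 as the picking array, the 116 probes over 0.3 above their surroundings had a median of 1.11 in strain 73 (quartiles 0.98 and 1.21), and 115 of them were above the 0.69 of the rest. The 79 probes that lay over 0.3 below had a median of 0.26 (quartiles 0.00 and 0.42), and 77 of them were below the 0.71 of the rest. In the 10 other arrays the medians of both groups lay between -0.06 and 0.17. Over the right part, 18 probes of strain 73 exceeded 1.3 and 7 lay below -0.3, whereas none of its probes did either on the left. They are 18 and 7 of 2781 probes, read as levels that keep the trend shared with the other arrays. The arithmetic above leaves out that trend and the noise, so these levels cannot be set against it directly. Other combinations of the homologues were not tested.

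At the far left of chromosome XII, strain 76 allowed a further comparison, since it had a median of -1.11 over the 288 probes from 20 to 75 kb. Here strain 73 had 0.55. Deviations in strain 73 and strain 76 had a Pearson's r of -0.62 and a Spearman's rho of -0.45, while r with strains 83 and 106 was 0.09 and -0.10. The 17 probes that stayed over 0.3 above their surroundings in strain 76 had a median of 0.44 in strain 73, and all 17 were below the 0.56 of the rest. The 7 probes that lay over 0.3 below their surroundings in strain 76 had a median of 0.60 in strain 73, against 0.55 for the rest, with 4 above and 3 below it. The first set was thus raised less in strain 73 than its surroundings, and the second showed no clear shift.

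The left end of chromosome VII held the most probes of any gain outside chromosome XII. There, the segment from 41 to 6943 (33 probes) was at 0.52 in strain 73, against 0.01 in WT14 and -0.95 (strain 76) to 0.05 (strain 113) on the others. Strain 73 was higher than all 13 other arrays there, and strain 76 lower than all. Over the 26 probes from 1 to 6.3 kb, strain 73 had 0.52 and strain 76 had -1.02, whereas from 7 to 20 kb of the same chromosome they had -0.08 and -0.02. The values were close to those of the left part of chromosome XII on the same arrays, 0.55 and -1.11. On the other 12 arrays, the end of chromosome VII lay between -0.36 and 0.04 and the left part of chromosome XII between -0.14 and 0.05. The end of chromosome VII therefore moved with the left part of chromosome XII in both strains in which that part changed. Where these sequences lie in the genomes of the parents was not analysed here.

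Many chromosome ends were higher in strain 73 than on any other array. Yeast chromosome ends carry subtelomeric repeats whose members resemble each other, so a probe there can report several ends at once. Of the 30 ends outside chromosome XII, 15 had a WT14 median above 0.5 over their outermost 5 kb, from 0.68 to 1.02, although WT14 was hybridised against itself. At these 15 ends strain 73 ran from 0.93 at the right end of XVI to 1.58 at the right end of IV, which is 0.14 to 0.75 above WT14, with a median of 0.47. Strain 73 was the highest of the 14 arrays at 14 of them. At the right end of XVI it was 2nd, with 1.01 in strain 1, and strain 1 was the highest of the other arrays at 14 of the 15. At the other 15 ends, where WT14 had -0.03 to 0.26, strain 73 lay between -0.22 and 0.51 and was below WT14 at all but 1, the left end of VII. At the right ends of II and X, for example, it had 0.09 and 0.12, against 0.24 and 0.26 in WT14. The ends of chromosome XII itself had 1.28 on the left and 1.57 on the right, which is 0.43 and 0.40 above WT14. On which chromosome the measured repeats stand cannot be told apart by the array. Apart from the left end of VII, the ends were not recomputed under other processing. With the series matrix values, called segments outside chromosome XII fell from 25 to 6, and how many of those at ends remained was not examined.

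**Figure D5:**
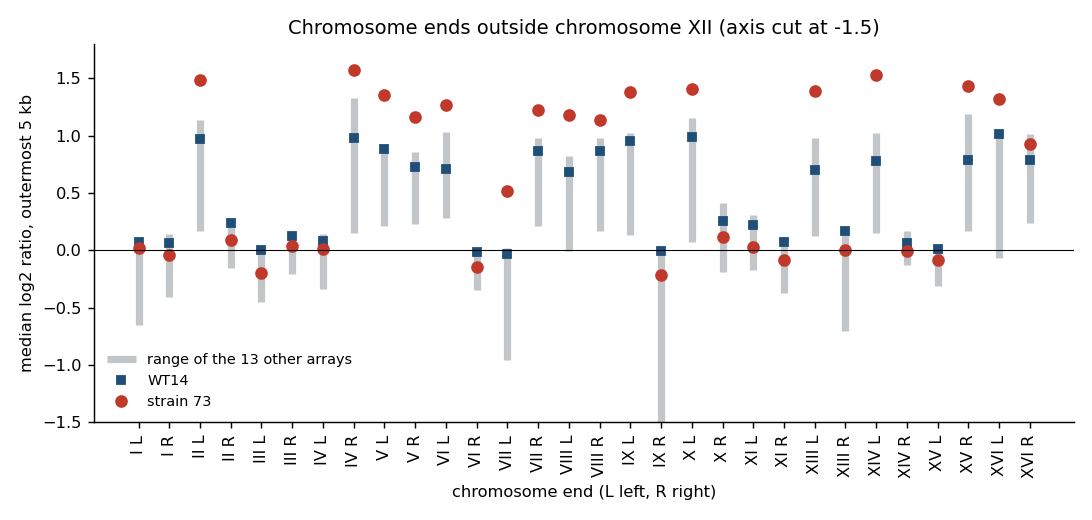
Median log2 ratio over the outermost 5 kb (vertical axis) of the 30 chromosome ends outside chromosome XII (horizontal axis, L left and R right) for strain 73 (red), WT14 (blue squares) and the range of the 13 other arrays (grey bars, the axis is cut at -1.5). Of the 15 ends where WT14 lies above 0.5, strain 73 is above all other arrays at 14. At the other 15 it lies within their range between -0.22 and 0.12, apart from the left end of VII at 0.51.

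In all, 25 segments outside chromosome XII were called in strain 73, all gains and none longer than 9211 bases. Gains outside chromosome XII numbered 18 on the WT14 array, 25 in strain 106 and 10 (strain 81) to 23 (strain 101) in the other strains, so strain 73 shared the highest number with strain 106. Losses there numbered 0 in strain 73, 1 in WT14 and up to 24 in strains 113 and 119. Of the 25, 18 lay within 20 kb of a chromosome end, and 15 of these were above all 13 other arrays. Of the 7 elsewhere, 4 were above all others. They were the stretches from 707861 to 713221 on VII with 0.92 (WT14 0.17), from 205164 to 211105 on IX with 0.93 (WT14 0.24), from 970860 to 976995 on XV with 0.58 (WT14 0.23) and from 513154 to 519754 on IV with 0.54 (WT14 0.39), each with 10 sparse probes. On VII, IX and XV the next highest array was strain 106, at 0.52, 0.54 and 0.35, and the lowest was strain 83, at -0.09, -0.19 and 0.07. With the series matrix values, the stretches of VII and IX fell to 0.09 and 0.13, within the range of the other arrays. The limma calls outside chromosome XII were few and depended on the processing. None remained under normexp, with the series matrix values or against the arrays of the same slide alone, while loess and windows with 1 probe gave more. The windows called in the main fit started at 4001 on V (difference 0.82, SE 0.22) and 4001 on IX (0.73, SE 0.21). The others started at 204001 on IX (0.17, SE 0.05) and 974001 on XV (0.35, SE 0.09). The first and second lay at chromosome ends, the third overlapped the stretch of IX in part, and the fourth lay in the stretch of XV.

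The remaining called stretches were shared with other TAQed strains. At 89115 to 92353 on III the median was 4.21 in strain 73, 0.00 in WT14 and -0.17 in strain 83, while the other 11 strains had 3.70 to 6.86. At 116139 to 117410 on V it was 4.02 in strain 73, 0.10 in WT14 and 0.03 in strain 83, with 3.50 to 6.67 in the rest. Strain 73 thus had a high ratio at these sequences, as most TAQed strains did, and was 7th of 14 at both. The array reads the amount of a sequence and not its place, and where these sequences stand was not tested. The stretch from 211926 to 215251 on VIII had 0.39 in strain 73 and 0.36 in WT14.

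Mitochondrial DNA, measured by 363 probes, had a median of 0.72 in strain 73, which is 1.65 times its share in WT14. WT14 against itself gave 0.09. The other TAQed strains ran from -8.56 (strain 84) to 0.80 (strain 113), and strain 76 had 0.71. Strain 73 was 2nd of 14, within the range of the others, and a tie with the gain of chromosome XII was not tested.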

How the data were processed

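Genomic DNA of 14 strains was compared with WT14 on Agilent 2-colour arrays, 100 ng per labelling. The authors deposited spot tables of Agilent Feature Extraction 11.0.1.1 (version from the submitters' processing notes), whose processed intensity per channel has the background removed and a linear dye normalization applied. A table of log10 ratios (Cy5 to Cy3, 47691 spots), also deposited by the authors, served as an alternative. The direction, strain over WT14, follows the dyes in the labels. Probe positions are those of sacCer2.

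The log2 ratio of the processed signals was computed without loess or quantile normalization. The 997 control spots, 64 to 135 outlier spots per array, 22 spots without coordinates and 23 probes spanning over 100 bases were left out, spots of a probe were averaged, and each array was centred on its nuclear median. No spot was saturated. The number of arrays limits the precision. Segmentation used optimal partitioning in which each further segment cost 10 noise variances multiplied by ln of the probe number. Windows of 2 kb with at least 3 probes were fitted with limma 3.58.1 in R 4.3.3, strain 73 against 13 arrays, with Benjamini-Hochberg adjustment. Python 3.11.15, numpy 2.4.6, pandas 2.3.3, scipy 1.17.1 and matplotlib 3.10.9 did the rest. Segmentation and fit were tested on simulated data with known changes. Groups came from the labels.

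The strain, its regions and the measures were chosen with earlier results of these data known, and the boundaries of the deviation analysis, the picked probes, the chromosome ends and the end trend were set after the values were seen. Stretches were to be named when called in strain 73 outside the range of the other 13 arrays. The other called stretches, the segments of chromosome XII and single probes were named after their values were seen. Genes of chromosome XII and a few others were to be named with their probe medians. No annotation in the coordinates of the array was used here, so 11 genes are named as background only, with no value. Alternatives covered the source of the ratio, background correction, loess, centring, probe filter, reference profile, segmentation, windows and arrays compared.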

Additional observations from a re-analysis of the deposited data

How the results depend on the processing

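Under all alternatives run, chromosome XII of strain 73 stayed gained. Its median ran from 0.67 to 0.71, its difference from the other arrays from 0.58 to 0.66 (exact p from 0.0714 to 0.167, the smallest each number of arrays allows) and its share of probes in gained segments from 98.3% to 99.7%. Limma called 391 to 494 windows in the alternatives that kept 2 kb windows, 856 with windows of 1 kb and 189 with windows of 5 kb, which follows the number of windows fitted. Leaving out each other array in turn gave 422 to 470. Called segments outside chromosome XII fell from 25 to 11 with at least 20 probes a segment and to 6 with the series matrix values. That matrix held 47691 spots, against 61413 in the spot tables without controls. For strain 73 its ratios matched those stored in the spot tables within 1.64e-07 log2, and the stored ratios gave 25 segments. The fall to 6 thus went with the spots held, and which of the missing spots mattered was not tested.

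Smaller features depended more on the processing. The ribosomal DNA stretch, at 1.19, was 0.32 with loess and 0.31 with the WT14 ratio subtracted. The stretches of VII and IX, at 0.92 and 0.93, fell to 0.09 and 0.13 with the series matrix values, within the range of the other arrays. The left end of VII, at 0.52, was 0.34 under normexp and still above all other arrays. The other chromosome ends were not recomputed. The short stretch of III, at 4.21, was 2.47 over spots well above background. Of 166 alternative values, 147 kept to their margin and 19 moved beyond it, none of them changing sign in a called value. The margin was the call, 1.5 times for a count or share, or the spread between arrays. For the difference of chromosome XII from the other arrays it was only the sign. The likeness to strains 106 and 83 under normexp is given with the result, and 13 values came from alternatives chosen after seeing the data. No paired analysis was possible because each strain has 1 array. Depth was not limiting for strain 73, whose spots were almost all above background.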
